A study of Mus musculus with 9 samples.

Results

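RA-induced enhancers are stretches of mouse embryonic stem cell DNA whose reporter RNA was called higher after retinoic acid (RA) without leukemia inhibitory factor (LIF) than with LIF. The authors' list of them held 382 regions after rows with the same coordinates were joined, of 5657 regions in the 3 deposited enhancer lists. The members were selected on their RA over LIF peak call, so their RA over LIF values are given as a description and were not tested. They were then divided by overlap of at least 1 bp with an enhancer listed in LIF (an mESC enhancer) and with a binding peak of the retinoic acid receptor RARA. An mESC enhancer was overlapped by 195 members, against 2.47% of all 186959 regions of the plasmid library. An RARA peak was overlapped by 118 members (30.9%), against 2.94% of the plasmid library regions. Closer comparisons are mESC enhancers in neither other enhancer list, with 17.3%, and the enhancers listed as LIF-dependent, with 16.6%. The 4 classes held 86 members at an mESC enhancer with an RARA peak, 109 at an mESC enhancer without one, 32 with an RARA peak outside the mESC list and 155 with neither overlap. All 3 enhancer lists hold only part of the numbered peaks, and the filter, which may tie the lists to each other or to the plasmid regions, is not known here. The counts at and outside mESC enhancers therefore describe the deposited lists.

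Retinoic acid is the ligand of the retinoic acid receptors, nuclear receptors that bind DNA as heterodimers with retinoid X receptors. The heterodimer can sit on its DNA sites without ligand, together with corepressors, and ligand exchanges these for coactivators. In embryonic stem cells RA drives exit from the pluripotent state, which LIF maintains through STAT3.

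The reporter assay was FAIRE-STARR-seq in feeder-free E14 cells, a mouse embryonic stem cell line. Fragments of accessible chromatin, taken from cells given 1 µM RA for 4 h, were placed in a plasmid behind a promoter, so that an active fragment is found in the plasmid's own RNA. Plasmid RNA was read in 3 samples kept with LIF and in 3 samples that had LIF removed and 1 µM RA added for the last 4 h, and the plasmid library itself was sequenced as 1 sample. RARA binding was mapped by ChIP-seq in 1 sample after 4 h of RA, with 1 input sample. LIF removal and RA addition were made together and cannot be told apart in these lists, and RARA was mapped with RA alone, so its binding with LIF was not analysed here. The replicates of each group were merged before peaks were called, which leaves 1 value per region and condition, and the spread between cultures is unknown.

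Each deposited peak carries a fold enrichment and a −log10 p. For a caller of the MACS2 kind the fold is the fragment depth over the summit plus 1, divided by the expected background plus 1. The p is the Poisson probability of a depth greater than that on that background. Solving both for a whole number of fragments gave the RA depth and the LIF background of 381 of the 382 members, and the same was done for the LIF depth at mESC enhancers, the plasmid depth and the RARA depth. At 427 of 427 summits listed both as LIF-dependent and as mESC enhancers, the LIF depths from the separate lists were equal. Intervals on depths and depth ratios are 95% exact intervals and cover counting error only.

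RA depth over the summit ran from 4 to 382 fragments among the 381 members, with a median of 41. Members at an mESC enhancer were deeper at the median. The mESC list was itself called on LIF reporter signal over the plasmid library, so reporter depth is not independent of these classes. At least 30 RA fragments were found in 82 of 86 and 100 of 109 members at an mESC enhancer with and without RARA. Outside the list they were found in 17 of 32 and 31 of 154. Their median RA depth was 88 fragments with an RARA peak (quartiles 55 and 148) and 79 without (51 and 105). Outside the mESC list it was 30 with an RARA peak (22.8 and 40) and 17 without (11 and 27). The LIF background was also higher at mESC enhancers, with medians of 15.9, 18.8, 4.08 and 1.58 fragments in the 4 classes in this order. The deposited folds were higher outside the mESC list, with medians of 5.27, 3.89, 6.28 and 6.54. Fewer than 10 RA fragments lay over the summit in 25 of 154 members outside the mESC list without RARA, in 1 of 32 outside with RARA, and in 0 of 86 and 0 of 109 members at an mESC enhancer. In 23 of those 154 members the LIF background was at its lowest value, 0.169 fragments, taken here as the average depth over the genome. No member of the other classes was at it. At such regions the 1 added to both sides of the ratio holds the fold down. Without it the class medians would be 5.69, 4.04, 8.85 and 11.6.

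**Figure D1:**
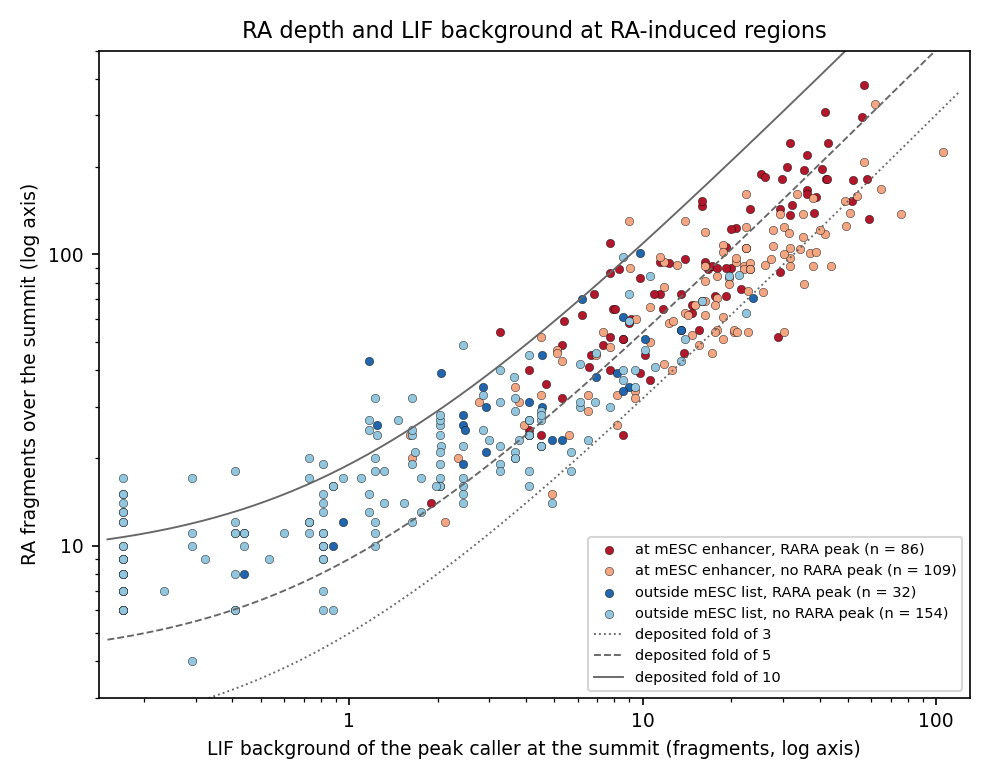
RA fragments over the summit (vertical, log axis) against the LIF background that the peak caller set there (horizontal, log axis), 1 point for each of 381 RA-induced regions, coloured by class, with lines at deposited folds of 3, 5 and 10. Regions outside the mESC list lie mostly low and to the left, with a column of 23 at the lowest background of 0.169, while regions at mESC enhancers reach 382 fragments.

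The regions of highest deposited fold show what these numbers rest on. The highest of all, 20.3-fold, was that of a region on chromosome 19 (37770294 to 37770533) that no mESC enhancer overlapped, where 43 RA fragments stood on a background of 1.17. Its RARA peak had a fold of 10.2 and a summit 16 bp away. The next in that class, on chromosome 5 from 33304187 to 33304563, had 13.1-fold, with 39 fragments on a background of 2.05 and an RARA fold of 6.56. Outside the mESC list without RARA the highest fold was 15.4, on chromosome 3 from 143382980 to 143383197, with 17 RA fragments (9.90 to 27.2) on the lowest background. The other 4 highest folds of that class, 13.7 to 14.8, stood on 15 to 49 fragments. At mESC enhancers without RARA the highest fold was 13.1, on chromosome 12 from 15122316 to 15122661, with 130 RA fragments on a background of 8.98. With RARA it was 12.9, on chromosome 15 from 9382596 to 9383067, with 54 fragments on 3.27. A fold near 13 thus stood on 39, 54 and 130 fragments in these 3 regions.

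The reporter RNA with LIF could be read directly at the 195 members that lay at an mESC enhancer, because that list gives the LIF depth over the enhancer's summit. LIF depth was multiplied by 0.819 to set it on the scale of the RA samples. This factor is the lowest background in the RA-induced list, 0.169 fragments, over the lowest in the mESC list, 0.206. Both were taken as the average depth over the genome, which was not tested. On this scale the RA depth was a median of 1.50 times the LIF depth (quartiles 1.31 and 1.92, range 0.708 to 4.71), where the deposited RA over LIF fold of the same regions had medians of 5.27 with RARA and 3.89 without. The background that the caller had set from the LIF samples was a median of 33.4% of the LIF depth at the mESC summit (quartiles 24.8 and 42.8%). In the 103 regions with both summits at most 10 bp apart the median ratio was 1.55, the median fold 4.73 and the background 32.4% of the LIF depth. The reason for the low background was not tested. Because members were selected for high RA over LIF values, the ratios are not free of that choice either.

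By the direct ratio, RA depth was at least 2 times the LIF depth in 37 of 195 members. These were 20 of 86 with an RARA peak and 17 of 109 without. RA depth was at least 3 times the LIF depth in 6. It was under 1.5 times in 98 and below the LIF depth in 8. The counting interval of the ratio lay wholly above 1 in 118 of 195 members, 60 of 86 with an RARA peak and 58 of 109 without, and wholly below 1 in 0. These counts are a description only, since the members were selected on a call that used the same RA depth. The intervals also take the scaling of LIF depth as exact. The median ratio was 1.60 with an RARA peak and 1.44 without, and the ranges overlapped, 0.892 to 4.71 and 0.708 to 4.07. RA and LIF depth went together across the 195 regions (Pearson r 0.905 on log2 values; the regions share their libraries and the amount of plasmid).

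**Figure D2:**
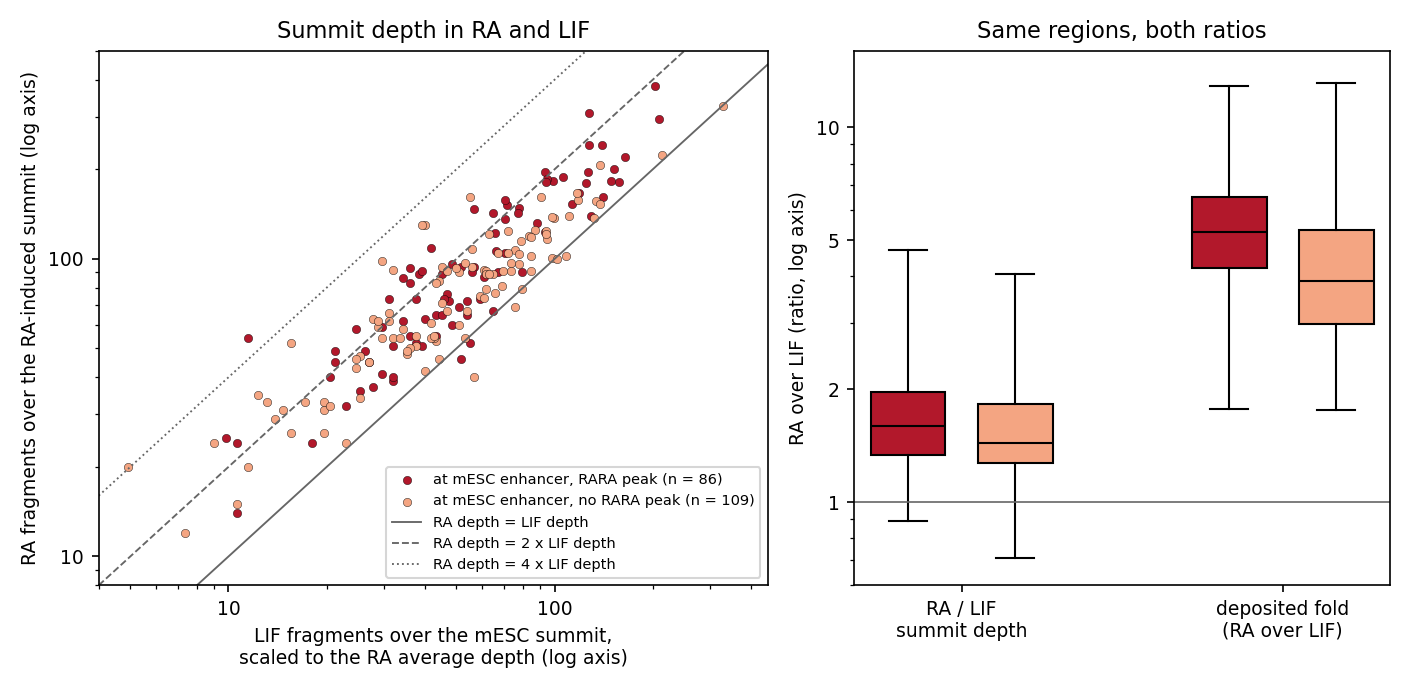
Left, RA fragments over the summit (vertical) against scaled LIF fragments over the mESC summit (horizontal), log axes, 1 point for each of 195 RA-induced regions at an mESC enhancer, with lines at 1, 2 and 4 times the LIF depth. Right, the depth ratio and the deposited fold of the same regions (log axis; box, quartiles and median; whiskers, range), with medians of 1.60 and 1.44 for the ratio against 5.27 and 3.89 for the fold, with and without an RARA peak.

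The highest ratio was found on chromosome 15 from 9382596 to 9383067, where 54 RA fragments stood against 14 LIF fragments, 11.5 after scaling, a ratio of 4.71 (2.58 to 9.19). The next 4 regions, named like it after the ratios were seen, had ratios from 3.31 to 4.07. An RARA peak, of 3.72-fold, was listed at the region of highest ratio, and none was listed at these 4, beside 86 of all 195. The highest ratio of these 4 regions, 4.07 on chromosome 8 from 101990348 to 101991268, rested on 20 RA and 6 LIF fragments and had an interval of 1.58 to 12.4. It was also the widest member, at 921 bp. By contrast, the region on chromosome 5 from 136254337 to 136254560 had 130 RA and 48 LIF fragments, a ratio of 3.31 (2.36 to 4.71). At the lower end, a region on chromosome 12 from 85791951 to 85792419 had 40 RA and 69 LIF fragments, a ratio of 0.708 (0.467 to 1.06), but its RA and LIF summits lay 288 bp apart. One on chromosome 10 from 10716704 to 10716910 had both summits at the same base, 69 RA and 92 LIF fragments, a ratio of 0.916 (0.661 to 1.27) and a deposited fold of 4.04. The strongest enhancer among the members by the authors' score, a value of unstated scale, was on chromosome 2 from 153171270 to 153171546. It had a score of 4.70, 327 RA and 402 LIF fragments, a ratio of 0.994 (0.856 to 1.15), and a deposited RA over LIF fold of 5.24. The other 4 members of highest score had ratios between 1.34 and 1.92.

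Members at an mESC enhancer were also deeper at the median in the plasmid library. Median plasmid depth over the library summit was 112 and 124 fragments at mESC enhancers with and without RARA, and 58 and 31 outside the list. The library held no called region at 6 of the 155 members outside the list without RARA and one at every member of the other classes. Plasmid and RA depth went together across the 376 members with both (Pearson r 0.783 on log2 values). Read per 100 plasmid fragments, RA fragments had medians of 88.3, 65.7, 56.9 and 52.3 in the 4 classes, in the order above. This measure too is not independent of the classes, since the mESC list was called on LIF signal over the plasmid library. LIF fragments, scaled by 0.819 as above, had medians per 100 plasmid fragments of 52.2 at mESC members with RARA and 45.6 without, beside 49.1 and 48.1 at mESC enhancers that neither the RA-induced nor the LIF-dependent list overlaps (unchanged mESC enhancers), with RARA (673 regions) and without (3173 of 3206 regions had both values). None of 181 members outside the mESC list shared its plasmid region with an mESC enhancer. For members outside the deposited mESC list no LIF depth could be read. That list leaves out some numbered peaks, so a LIF peak at such a member may have been called and then removed.

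The member with the highest plasmid fold, 36.5, lay on chromosome 13 from 66092022 to 66092256, with 401 plasmid fragments. It gave 296 RA and 255 LIF fragments, a ratio of 1.42 (1.20 to 1.68), at an RARA peak of 9.19-fold. A member on chromosome 17 from 65222927 to 65223217 had 196 plasmid but 43 RA fragments and was in neither the mESC list nor an RARA peak.

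RARA peaks were listed at 86 of 195 members at an mESC enhancer, 44.1% (95% Wilson interval 37.3 to 51.1%), and at 32 of 187 outside, 17.1% (12.4 to 23.2%), a difference of 27.0 percentage points (17.9 to 35.4). These intervals take regions as the counting unit and say nothing of the spread between cultures. Deeper parts of the plasmid library held more RARA peaks even where no enhancer was called, from 1.04% of regions with under 30 plasmid fragments to 18.5% of those with 130 or more. With members divided at the same depths, RARA was listed at 4 of 14, 11 of 30, 41 of 70 and 30 of 81 members at an mESC enhancer, from shallow to deep. Outside the list the counts were 8 of 78, 13 of 64, 8 of 25 and 3 of 14. In each of the 4 depth ranges the share was higher at an mESC enhancer, but the 95% intervals at and outside overlapped. In the deepest range they were 27.3 to 47.9% and 7.57 to 47.6%. Among members with at least 30 RA fragments the shares were 45.1% (82 of 182) and 35.4% (17 of 48), a difference of 9.64 points (-6.17 to 23.6). Among those with fewer they were 30.8% (4 of 13) and 10.9% (15 of 138), a difference of 19.9 points (0.749 to 47.1). Both differences were smaller than the one over all members, with wide intervals that overlapped it, and the part of RA depth in the class difference was not tested. Unchanged mESC enhancers had RARA shares of 10.0, 18.1, 17.8 and 20.3% in the 4 plasmid depth ranges. Over all depths their share was 17.3% (673 of 3879), and that of LIF-dependent enhancers was 16.6% (100 of 601). Both were close to the 17.1% of members outside the mESC list.

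**Figure D3:**
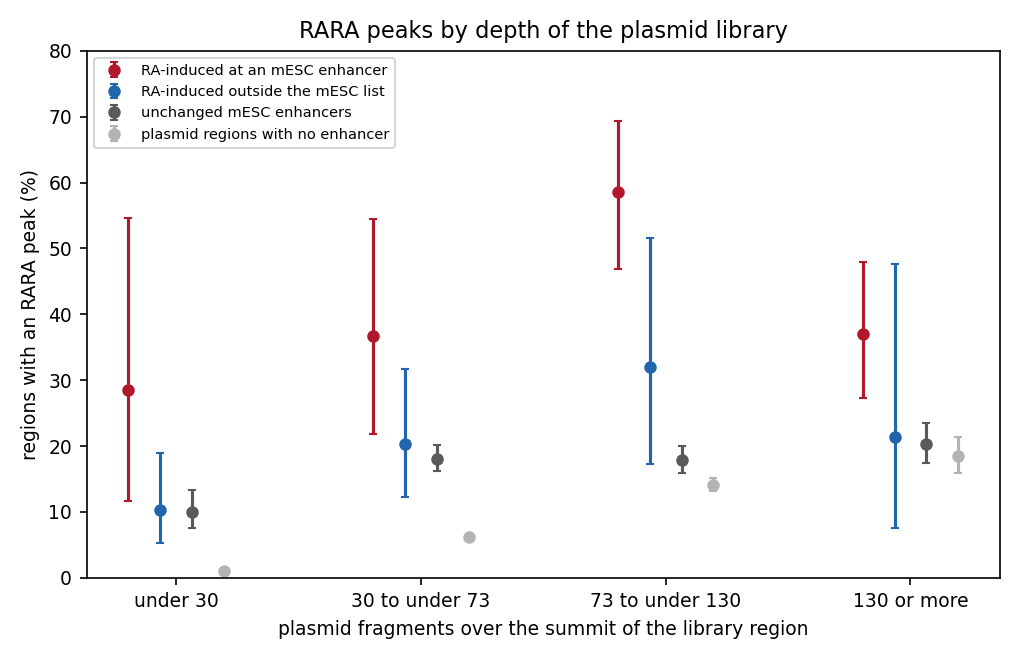
Share of regions with an RARA peak (vertical, percent; bars, 95% Wilson intervals, counting error only) in 4 ranges of plasmid depth (horizontal) for RA-induced regions at and outside mESC enhancers, unchanged mESC enhancers and plasmid regions with no enhancer. RA-induced regions at an mESC enhancer have the highest share in every range and reach 58.6% at 73 to under 130 fragments, and plasmid regions with no enhancer climb from 1.04 to 18.5%.

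Where a member had an RARA peak, the peak was taller and wider at the median than the 9757 RARA peaks of the whole list, whose median fold was 3.06 and median width 256 bp. Median RARA fold was 5.57 in the 86 peaks at mESC members and 4.15 in the 32 outside, beside 3.32 in the 673 at unchanged mESC enhancers and 3.48 in the 100 at LIF-dependent enhancers. Folds in the top 10% of all RARA peaks (5.78 or more) were found at 40 of 86 and 13 of 32 members. Median width was 496 and 392 bp, beside 329 bp at unchanged mESC enhancers and 362 bp at LIF-dependent enhancers, close to the members outside the list. More than 1 summit was listed within the peak at 27 of 118 members (22.9%), against 12.9% of all RARA peaks. The share at other enhancers was not analysed here, and the part of peak width in it was not tested. RARA depth over the summit had medians of 73.5 and 50 fragments. The RARA summit fell inside the member at 105 of 118, within 100 bp of the RA summit at 99 of 118, and the whole member lay within the peak at 60 of 118. Median distance between the RARA and RA summits was 40 bp at mESC members and 28 bp outside.

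The strongest RARA peak at a member, 32.0-fold with 354 RARA fragments, covered a region on chromosome 18 from 76331267 to 76331515, with 73 RA and 46 LIF fragments and a ratio of 1.94 (1.32 to 2.87). A peak of 28.0-fold on chromosome 2 from 20590028 to 20590300 had its summit 1 bp from the RA summit, where 189 RA and 130 LIF fragments gave a ratio of 1.78 (1.41 to 2.24). On chromosome 11 from 62028680 to 62029065 the 27.0-fold RARA summit and the RA summit fell on the same base, with a ratio of 2.13 (1.63 to 2.81). The fourth, 22.7-fold on chromosome 1 from 63185192 to 63185507, had 309 RA and 156 LIF fragments and a ratio of 2.42 (1.99 to 2.95). The fifth, 20.5-fold on chromosome 4 from 144624550 to 144624807, had 109 RA and 51 LIF fragments and a ratio of 2.61 (1.86 to 3.72). All 5 intervals lay above 1, in members selected for high RA over LIF values.

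Outside the mESC list the strongest RARA peak had 31.3-fold and 318 RARA fragments, on chromosome 13 from 99881990 to 99882201, a region with 31 RA fragments (21.1 to 44.0) on a LIF background of 4.08. The other 4 strongest peaks of that class had folds from 15.0 to 16.8 and stood at members with 23 to 101 RA fragments. One of them, on chromosome 4 from 151271232 to 151271415, had 363 RARA fragments and a deposited RA over LIF fold of 3.87. RA depth in the whole class had a median of 30 fragments (quartiles 22.8 and 40).

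Across the 86 members at an mESC enhancer with RARA, the depth ratio tended to be higher where the RARA fold was higher. In 4 groups of 21 or 22 members, ordered from the lowest to the highest RARA fold, the median ratio was 1.39, 1.49, 1.63 and 1.92, and ratios of 2 or more were found in 3 of 22, 5 of 21, 5 of 21 and 7 of 22. The lowest ratio was 1.04, 0.948, 0.892 and 1.24 in these groups, whose ranges overlapped. Pearson r between the log2 values was 0.34 and Spearman's rho 0.386. The deposited RA over LIF fold gave r 0.217 in the same regions and 0.026 in the 32 members outside. These correlations describe regions of the same pooled libraries and carry no p. The ratio uses the RA depth on which the members were selected, so it is not free of that choice here either.

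**Figure D4:**
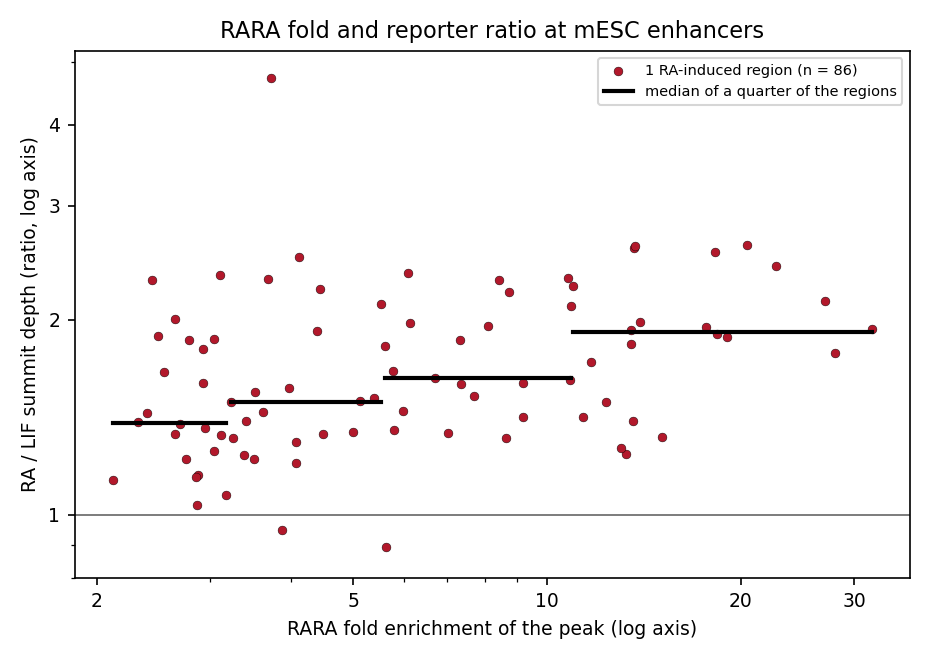
Ratio of RA to scaled LIF summit depth (vertical, log axis) against the RARA fold of the overlapping peak (horizontal, log axis), 1 point for each of 86 RA-induced regions at an mESC enhancer with an RARA peak, with bars at the median of each of 4 groups by RARA fold. The medians go from 1.39 to 1.92, and the points spread widely within each group, up to 4.71.

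Few members lay near the overlap limit of 1 bp. The smallest overlaps with an RARA peak were 46, 46 and 62 bp, with RARA folds of 2.69, 2.85 and 3.87 and RARA summits 216, 407 and 164 bp from the RA summit. The nearest RARA peaks that missed a member were 5, 30 and 60 bp away, all at members at an mESC enhancer. The smallest overlaps with an mESC enhancer were 154, 174 and 183 bp, and the nearest mESC enhancers that missed a member were 426, 540 and 1089 bp away.

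In position, members at an mESC enhancer largely coincided with it. The RA summit lay inside the mESC enhancer at 194 of 195, the whole member inside it at 169 of 195, and the median distance between the summits was 9 bp, with a range of 0 to 288 bp. Width had class medians of 287, 262, 284 and 274 bp. The narrowest members had 180, 180 and 182 bp and the widest 921, 774 and 655 bp, of which the last were on chromosome X (60184747 to 60185520) and on chromosome 18 (33203413 to 33204067), with 16 and 11 RA fragments and neither overlap. Members with more than 1 listed summit numbered 4, and 0 of the 4 had an RARA peak, beside 118 of all 382 members. They lay on chromosome 11 from 69734843 to 69735258, on chromosome 5 from 116102974 to 116103311 and from 152171119 to 152171597, and on chromosome 7 from 26052893 to 26053301, with deposited folds of 2.50 to 3.67.

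Few members lay close together. Another member had its midpoint within 100 kb for 18 of 382. On chromosome 13, members starting at 66092022, 66412916, 66726487 and 66924264 had their nearest member 321, 314, 198 and 198 kb away. All but the last of these lay at an mESC enhancer with an RARA peak. Longer runs of members were not analysed over the genome. Another member had its midpoint within 50 kb for 10 of 382, in 5 pairs. The closest pair, 1.78 kb apart on chromosome 9, had neither overlap, from 92823534 to 92823834 with 13 RA fragments and from 92825297 to 92825637 with 45. On chromosome 2, regions from 29675954 to 29676268 and from 29682723 to 29682966 lay 6.73 kb apart, both at an mESC enhancer, with 181 and 158 RA fragments and ratios of 1.15 (0.935 to 1.42) and 1.34 (1.06 to 1.69). The pair on chromosome X, 11.1 kb apart, joined a region at an mESC enhancer with a 10.9-fold RARA peak, from 96752019 to 96752490, to one outside without RARA, from 96763197 to 96763525. A pair on chromosome 1, 18.8 kb apart, had RARA at both, from 184093158 to 184093491 outside the mESC list and from 184111986 to 184112283 at an mESC enhancer with a ratio of 2.31 (1.61 to 3.37). The fifth pair, also on chromosome 1, from 88207529 to 88207854 and from 88255946 to 88256182, lay 48.4 kb apart with ratios of 1.31 and 1.83.

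Members outside the mESC list had an mESC enhancer within 1 kb in 2 of 187 cases, within 5 kb in 13 (6.95%) and within 50 kb in 57 (30.5%), beside 0.937, 3.13 and 27.5% of the 182159 plasmid regions with no enhancer. Within 100 kb the share was 76 of 187 (40.6%) beside 44.1%. The Wilson intervals of the member shares were 24.3 to 37.4% within 50 kb and 33.9 to 47.8% within 100 kb. Both included the share of the plasmid regions, as did the interval within 1 kb, 0.294 to 3.82%. The interval within 5 kb, 4.11 to 11.5%, lay above the 3.13% of plasmid regions. Members without an RARA peak had one within 5 kb in 33 of 264 (12.5%) and within 50 kb in 112 (42.4%), beside 11.9 and 47.4% of the unchanged mESC enhancers without RARA. For mESC members alone the share was 19 of 109 (17.4%) within 5 kb and 53 of 109 (48.6%) within 50 kb. A LIF-dependent enhancer lay within 50 kb of 19 of 382 members (4.97%), beside 4.51% of unchanged mESC enhancers and 4.03% of plasmid regions with no enhancer. By chromosome, 5, 6 and 4 held the most members, 34, 31 and 28, which were 8.90, 8.12 and 7.33% of the members, beside 7.02, 5.44 and 6.78% of the plasmid regions. Chromosome 19 held 13, of which 0 were outside the mESC list without RARA. The X chromosome held 18, of which 9 were in that class. These 18 were 4.71% of the members, beside 1.38% of the plasmid regions and 2.63% of unchanged mESC enhancers.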

How the data were processed

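The deposited lists are MACS2-type peak files without headers, in mm9. The tools named in the submitters' processing notes are MACS2, Bowtie2, SAMtools, deepTools and UMI-tools; the sources used here give neither versions nor settings. The deposited fold enrichment is a ratio at the summit, and the deposited −log10 p and −log10 q are the authors' own. The deposited table of mESC enhancers adds a score of unstated scale. Peak names run to 20845 (386 rows) in the RA-induced list, 28102 (4787) in the mESC list, 29683 (616) in the LIF-dependent list and 397053 (195417) in the plasmid list, so all hold part of the numbered peaks. The sources used here give no filter, which may tie the lists to each other.

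Rows with the same coordinates were joined to the row of highest −log10 q (382 regions), and regions overlapping by at least 1 bp were counted as shared, with coordinates counted from 1. Depths were recovered as whole fragments with a −log10 p misfit of at most 0.002 in the 3 enhancer lists (385 of 386 RA-induced rows) and within 0.05 of a whole number in the RARA and plasmid lists. This step, added once the values had been seen, rests on the caller adding 1 to both sides of the fold. The named regions are the 5 highest RA over LIF folds per class, the 5 highest RARA folds in each RARA class, the 5 highest scores, the 5 highest plasmid folds, the 3 widest and 3 narrowest, pairs within 50 kb, regions with more than 1 row, and the 3 on each side of the overlap limit. Those given by ratio, and the run on chromosome 13, were added after their values were seen. The members and lists were chosen with earlier results of these data known. The lists hold no value per sample, so no test between conditions was made. Shares carry 95% Wilson intervals and their differences intervals built from these, as counting error over regions, which are not replicates. Nearest genes, sequences and motifs need mm9 and were not analysed here, nor were signal tracks. Scripts ran in Python 3.11.15 with pandas 2.3.3, SciPy 1.17.1, NumPy 2.4.6 and Matplotlib 3.10.9.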

Additional observations from a re-analysis of the deposited data

How the results depend on the processing

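No paired analysis was possible because the deposited lists come from merged replicates. Other definitions of overlap gave 193 to 194 members at an mESC enhancer and 105 to 133 with an RARA peak. Rows not joined gave 197 and 118, and the stronger 50% of RARA peaks gave 90. The difference in RARA share between members at and outside an mESC enhancer was 22.1 to 28.4 percentage points with only the stronger 50% of members or of RARA peaks, with the RARA summit required inside the region, or without the X chromosome. Settings added after the data were seen gave 18.8 points with plasmid depth at or above the median, 9.64 points with at least 30 RA fragments and 19.9 points with fewer. Without the added 1, the median RA over LIF fold outside the mESC list was 8.85 with RARA and 11.6 without. The median RA to LIF depth ratio was 1.23 with LIF depth not scaled and 1.49 to 1.55 under the other settings tried. Its size thus depends on that scaling, which rests on the lowest backgrounds of the RA-induced and mESC lists, taken as average depths. Depth limits single regions: 26 of 381 members had fewer than 10 RA fragments.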
